A study of Homo sapiens with 6 samples.

Results

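The 46 genes described here encode subunits of respiratory complex I (NADH:ubiquinone oxidoreductase) or NDUFAF factors that help to assemble it. They are the rows of the deposited gene table whose symbol is NDUFA, NDUFB, NDUFC, NDUFS, NDUFV or NDUFAF followed by a number, plus NDUFAB1. These are 46 of 35009 rows, each symbol had 1 row, and all 46 were among the 19944 genes with enough counts to be tested. They divide into 37 genes for structural subunits, 8 NDUFAF genes, and NDUFA4, which carries a complex I name but is now counted with complex IV (cytochrome c oxidase).

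The cells were THP-1, an established line from a monocytic leukaemia, turned into macrophages. All 6 libraries were from cells treated with ox-LDL, an oxidised form of low-density lipoprotein that loads macrophages with lipid. The control group (oxldl) had 3 libraries, and the MCT4-deficient group (oxldl_siMCT4, here siMCT4) had 3. MCT4, encoded by SLC16A3, is a plasma membrane carrier that exports lactate together with a proton. The labels name no non-targeting small interfering RNA for the controls, so the loss of MCT4 and the presence of an siRNA cannot be told apart. Nor do they say whether libraries of a group came from separate cultures, so p-values measure the spread between these libraries, which may be technical.

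Complex I oxidises NADH in the mitochondrial matrix, passes the electrons to ubiquinone and pumps protons across the inner membrane. Its peripheral arm projects into the matrix and holds the flavin and the iron-sulfur clusters, and its membrane arm holds the proton channels. Core subunits do the catalysis, and accessory subunits surround them and stabilise the whole. The core of the membrane arm is made from mitochondrial DNA, and all other subunits are encoded in the nucleus and imported. Assembly factors bind intermediates and leave before the enzyme is complete. In macrophages, complex I activity is tied to the balance between glycolysis and respiration.

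SLC16A3 was read at 115, 101 and 108 CPM (counts per 1e6, scaled by library size and the TMM factor) in control libraries 1 to 3 and at 10.8, 11.05 and 13.4 CPM in siMCT4 libraries 1 to 3. It was lower in 3 of 3 siMCT4 libraries (log2 change -3.20, SE 0.10, adjusted p = 1.12e-06; exact two-sided permutation test p = 0.1, the smallest that 3 against 3 allows). Total counts were between 61880619 and 69181938 per library. All 8 macrophage markers examined were tested, with CD68 at 904 to 938 CPM and ITGAX at 1481 to 1515 CPM in controls. With siMCT4, 4 of the 8 were lower (CSF1R, LYZ, TYROBP and ITGAM), 1 was higher (PTPRC) and 3 did not pass. CSF1R, the receptor for a macrophage growth factor, had the largest change, from a mean of 1729 CPM to 946 CPM (log2 change -0.87, adjusted p = 1.58e-05). The part of these marker changes in the results on complex I genes was not tested. PECAM1, which endothelium shares with monocytes, was read at 528 to 542 CPM in controls and 337 to 347 CPM with siMCT4. CDH5 and CD3E had no row, and EPCAM was too low to be tested.

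siMCT4 library 3 stood apart from the other libraries of its group in these genes. Across the 46 genes, the log2 ratio to the control mean in siMCT4 library 1 had a Pearson r of 0.96 with that in library 2, but 0.51 with that in library 3, and libraries 2 and 3 had 0.43. These are descriptions across genes that share libraries and the control mean. Control library 3 also differed from its group: it held the highest control value for 36 of the 46 genes, and its log2 ratio fell with the length of the coding sequence (r = -0.51, rho = -0.64). The counts of structural genes are therefore also given without each of these libraries, as are the values of some single genes.

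Structural subunit genes were mostly lower with siMCT4. Of 37, 22 were lower, 1 (NDUFV3) was higher and 14 did not pass the test, which was edgeR's quasi-likelihood test at a Benjamini-Hochberg adjusted p under 0.05 over all tested genes. Over all tested genes 20.8% were called lower and 20.6% higher, 41.4% in either direction. The median log2 change was -0.43 for the structural genes and -0.0064 for all tested genes, of which the middle 50% lay between -0.45 and 0.40. In 25 of the 37 genes every siMCT4 library was below every control, and in 1 every siMCT4 library was above, where 27.8% and 27.2% of all tested genes had such separation downwards and upwards. The summed level of the 37 genes was 1345, 1400 and 1551 CPM in controls and 1110, 1117 and 1022 CPM with siMCT4, with no overlap. In bulk samples, fewer cells of a type and less RNA per cell cannot be told apart.

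Few of the NDUFAF genes passed the test, with calls in both directions. Of 8, 1 (NDUFAF3) was lower, 1 (NDUFAF1) was higher and 6 did not pass. Of all tested genes, 20.8% were called lower and 20.6% higher. The NDUFAF genes had a median log2 change of -0.19. Without siMCT4 library 2, 2 were lower, where 3329 of 20713 genes were. The median was -0.12 without control library 2 and also without siMCT4 library 3. Their summed level was 92.1, 91.2 and 93.9 CPM in controls and 88.7, 92.7 and 92.6 CPM with siMCT4, and the groups overlapped. The groups separated downwards in 2 of these genes and upwards in 2, where 27.8% and 27.2% of all tested genes did so. Per length, the NDUFAF genes were expressed at lower levels: the median of the control means was 2.07 FPKM (per kilobase of gene and 1e6 fragments) against 9.26 FPKM for the structural genes. The difference between the lists was described and not tested.

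**Figure D1:**
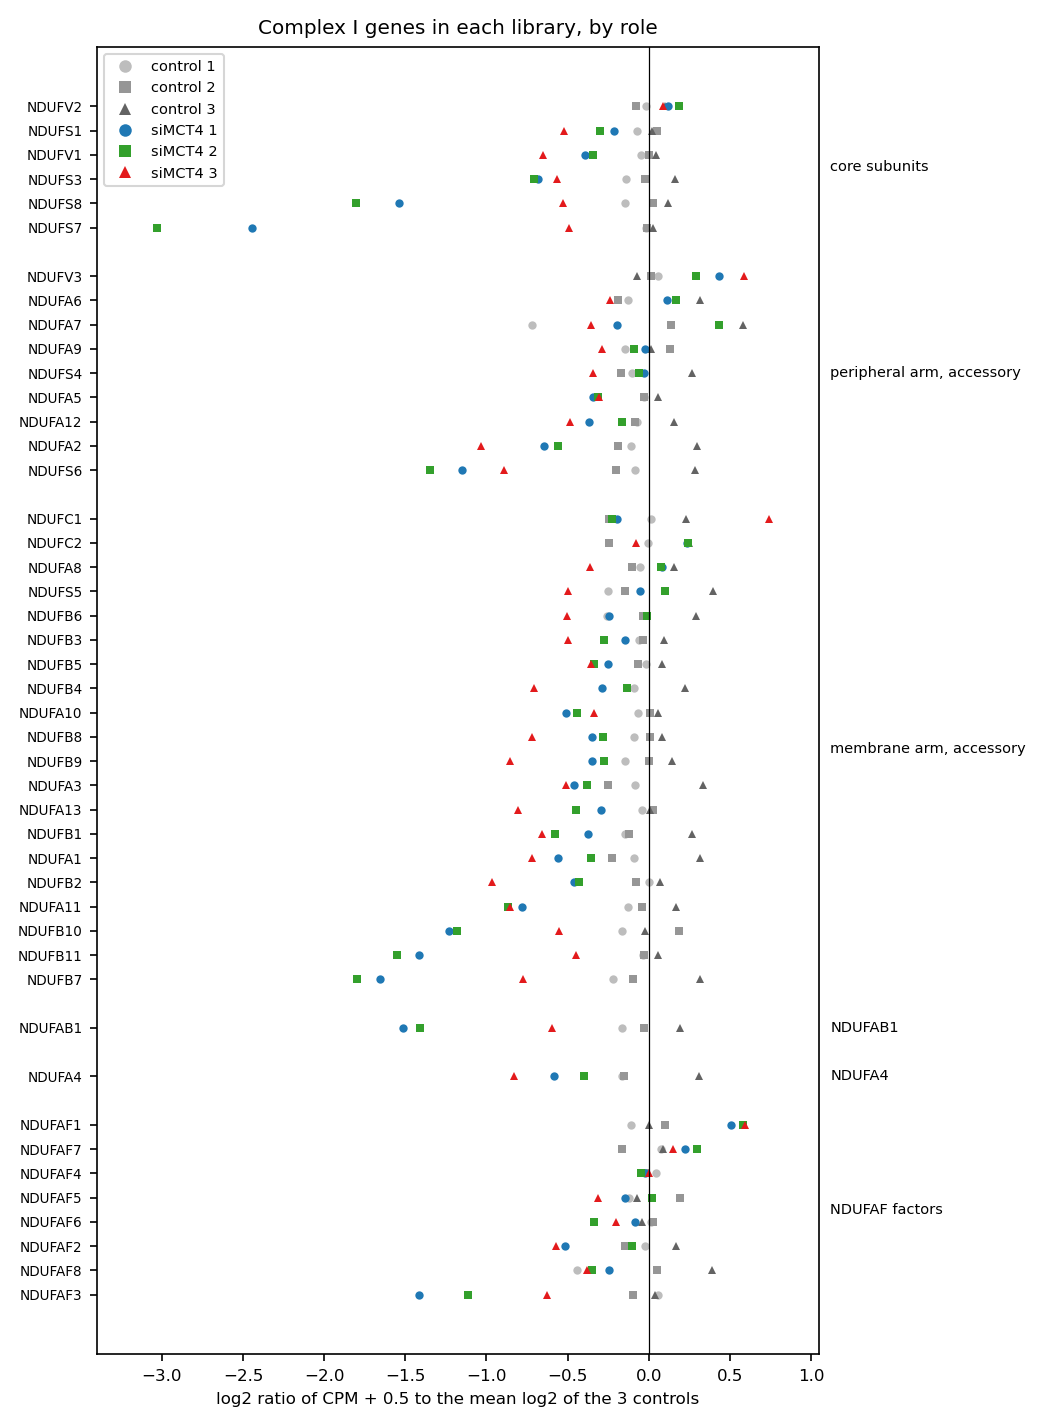
Log2 ratio of 45 of the 46 genes to the mean of the 3 controls (x axis) in each library, with genes grouped by role and ordered by log2 change (y axis); grey symbols are controls and coloured symbols siMCT4 libraries. Coloured symbols lie left of the grey ones for most structural genes, and siMCT4 library 3 (red triangles) departs from libraries 1 and 2 most for NDUFS7.

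Among the 7 nuclear core subunits, which carry electrons from NADH to ubiquinone, the median was -0.46. Of the 7, 5 were lower and 2 did not pass, where 20.8% of all tested genes were called lower. Without control library 2, 3 were lower, where 3160 of 21022 tested genes were called lower. NDUFV1 (chr11:67605653-67612554), which binds the flavin that accepts electrons from NADH, was read at 82.6, 85.4 and 88.0 CPM in controls and at 64.9, 67.2 and 54.1 CPM with siMCT4. The groups did not overlap, and the log2 change was -0.46 (SE 0.08, adjusted p = 0.004). NDUFS1 (chr2:206114817-206159444), the large iron-sulfur subunit next in the chain, had 166, 181 and 177 CPM in controls and 150, 142 and 122 CPM with siMCT4. It too separated fully, by -0.34 (SE 0.08, adjusted p = 0.0129), and siMCT4 library 3 was the lowest. Without control library 2 the fall was -0.31 and missed the threshold (adjusted p = 0.0531). NDUFV2 (chr18:9102630-9134341), the iron-sulfur partner of NDUFV1, went the other way in its values: 54.6, 52.3 and 59.3 CPM against 60.0, 63.2 and 58.7 CPM. Its groups overlapped, and the log2 change of 0.13 (SE 0.06, adjusted p = 0.142) did not pass, though it did as a rise without siMCT4 library 3 (0.18, adjusted p = 0.0498).

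NDUFS3 (chr11:47565336-47584561), a core subunit of the ubiquinone-reducing part of the arm, fell from 34.9, 37.8 and 43.0 CPM to 23.8, 23.3 and 25.8 CPM. The 3 siMCT4 values were close together, and the log2 change was -0.67 (SE 0.09, adjusted p = 0.000948). The NDUFS3 row overlaps PTPMT1 on the same strand, and the counter's rule for shared reads is not given in the sources used here.

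NDUFS7 and NDUFS8, which carry the last iron-sulfur clusters before ubiquinone, had the widest spread among siMCT4 libraries of the 7 core genes on the log2 scale. NDUFS7 (chr19:1383527-1395584) was even in the controls at 34.1, 34.3 and 35.3 CPM (mean 34.6 ± 0.61, SD, n = 3). With siMCT4 it was read at 5.95, 3.80 and 24.5 CPM (mean 11.4 ± 11.4). All siMCT4 libraries lay below the controls, library 3 far above the other siMCT4 libraries. The log2 change of -1.60 (SE 0.62) was the largest fall of the 46 genes and did not pass the test (adjusted p = 0.0764). Without siMCT4 library 3 it was -2.80 (adjusted p = 7.29e-06), and with library 3 as the only siMCT4 library it was -0.48. With all libraries it passed under limma on log2(FPKM + 1) (-1.22, adjusted p = 0.0355). NDUFS8 (chr11:68030617-68036644) had 32.9, 37.0 and 39.5 CPM in controls and 12.2, 10.04 and 25.1 CPM with siMCT4. It showed the same order of libraries, and its log2 change was -1.21 (SE 0.32, adjusted p = 0.0191), -1.69 without library 3 and -0.52 with library 3 alone. It did not pass without control library 2 (-1.19, adjusted p = 0.063), control library 3 (-1.15, adjusted p = 0.0705) or siMCT4 library 1 (-1.03, adjusted p = 0.0711).

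**Figure D2:**
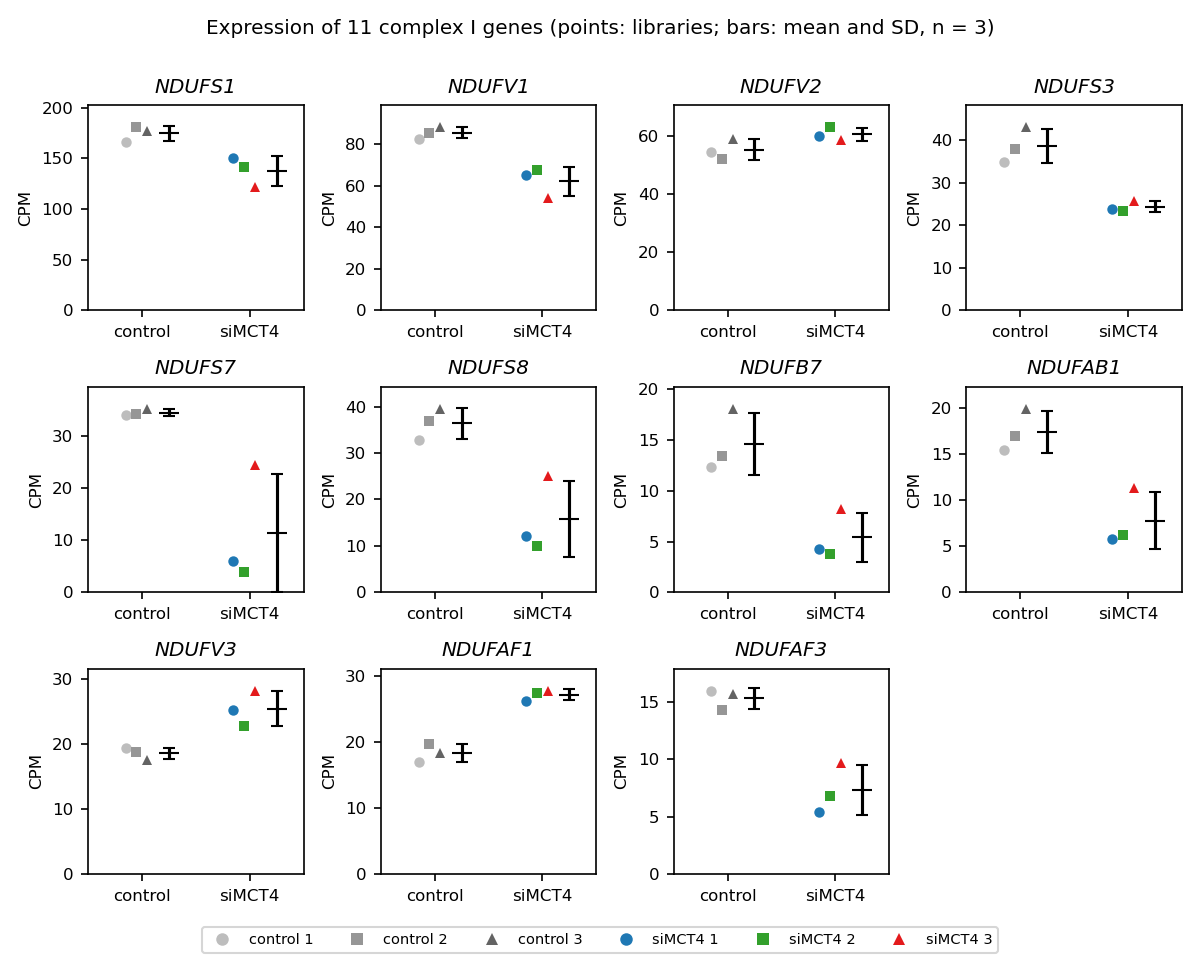
CPM (y axes, from 0) of 11 complex I genes in the 3 control (grey) and 3 siMCT4 (coloured) libraries, with mean and SD (n = 3) beside the points. siMCT4 library 3 sits at 24.5 CPM for NDUFS7 against 5.95 and 3.80 CPM in libraries 1 and 2, while NDUFAF1 and NDUFV3 are higher in all 3 siMCT4 libraries.

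Over the whole peripheral arm (16 genes), 8 were lower and 1 was higher, where 20.8% and 20.6% of all tested genes were. The other 7 did not pass, and the median of the 16 was -0.34. NDUFS6 (chr5:1801407-1816048), a zinc-binding accessory subunit, fell from 13.8, 12.6 and 18.0 CPM to 6.33, 5.44 and 7.66 CPM. Each siMCT4 library was lower than each control (log2 change -1.19, SE 0.18, adjusted p = 0.00162). NDUFA2, a thioredoxin-like subunit, fell by 0.78 and NDUFA5, an accessory subunit of the same arm, by 0.32 on the log2 scale. NDUFV3 (chr21:42879644-42913304), an accessory subunit of the NADH-oxidising module, was the 1 structural gene that rose. It had 19.4, 18.7 and 17.6 CPM in controls and 25.2, 22.8 and 28.2 CPM with siMCT4, with no overlap (log2 change 0.45, SE 0.09, adjusted p = 0.00699).

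The accessory genes of the peripheral arm that did not pass were NDUFA6, NDUFA7, NDUFA9, NDUFA12 and NDUFS4, with log2 changes from -0.35 (NDUFA12, adjusted p = 0.0621) to 0.01 (NDUFA6). NDUFS4, which is mutated in some patients with Leigh syndrome, was read at 14.2 to 19.4 CPM in controls and 12.5 to 15.7 CPM with siMCT4. NDUFA7 varied within the controls, at 4.52, 8.61 and 11.9 CPM. Its row shares sequence with a read-through row on the same strand that held 431, 65 and 105 counts in these libraries. Added together, the pair had 10.9, 9.62 and 13.5 CPM in controls and 8.17, 11.2 and 6.81 CPM with siMCT4, and the groups still overlapped.

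In the nuclear-encoded membrane arm (20 genes), 13 were lower and 0 were higher, where 20.8% and 20.6% of all tested genes were. The other 7 did not pass, and the median of the 20 was -0.46. None of the 20 rose at an unadjusted p under 0.05 in edgeR either. DESeq2 and limma called 0 higher at an adjusted p under 0.05, and unadjusted p was not counted there. NDUFC1 had a log2 change of 0.77 with siMCT4 library 3 as the only siMCT4 library, a fit whose spread comes from the controls alone. The count lower was 8 without control library 1, where 3179 of 20946 tested genes were called lower. The count was 6 without control library 3, where 15.3% of genes were called lower. NDUFB7 (chr19:14566078-14572066), a cysteine-rich subunit facing the intermembrane space, had the largest fall that passed the test. It was read at 12.3, 13.4 and 18.1 CPM in controls and 4.23, 3.78 and 8.22 CPM with siMCT4. No siMCT4 library reached the lowest control (log2 change -1.43, SE 0.31, adjusted p = 0.00851). NDUFB11 (chrX:47142071-47145466), an X-linked membrane subunit, went from 18.4, 18.5 and 19.6 CPM to 6.73, 6.10 and 13.7 CPM. siMCT4 library 3 was again the highest of its group, and the log2 change was -1.09 (SE 0.29, adjusted p = 0.0205). Without any 1 of the 3 controls, or of siMCT4 libraries 1 and 2, it was -1.09 to -0.86 and missed the threshold (adjusted p from 0.0566 to 0.0724).

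NDUFB10, another cysteine-rich subunit, fell by 1.01 and NDUFA11, an accessory subunit within the membrane, fell by 0.86 on the log2 scale. NDUFA10, a subunit with the fold of a nucleoside kinase, fell by 0.43 with little spread (104 ± 4.46 CPM in controls, 77.2 ± 4.56 CPM with siMCT4, SD, n = 3). NDUFB9, the most counted membrane-arm gene, was read at 123, 136 and 150 CPM in controls and 107, 112 and 74.7 CPM with siMCT4 (log2 change -0.48, adjusted p = 0.039). It missed the threshold without any 1 control or without siMCT4 library 1 (-0.54 to -0.41, adjusted p from 0.0572 to 0.127). Without siMCT4 library 3 it was -0.29 and passed (adjusted p = 0.0169). Here siMCT4 library 3 was the lowest, unlike in NDUFB7 and NDUFB11. The 7 membrane-arm genes that did not pass were NDUFA8, NDUFB3, NDUFB4, NDUFB6, NDUFC1, NDUFC2 and NDUFS5. NDUFS5, per length the highest of all 46 genes, had 60.5 ± 15.0 FPKM in controls and 58.6 ± 12.2 FPKM with siMCT4 (SD, n = 3). NDUFC1, a small membrane subunit, was read at 9.93 and 9.72 CPM in siMCT4 libraries 1 and 2 and at 19.5 CPM in library 3, against 9.58 to 13.5 CPM in controls.

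NDUFAB1 (chr16:23581014-23596316), the mitochondrial acyl carrier protein, belongs to both arms and also serves fatty acid synthesis in the matrix. It was read at 15.4, 16.9 and 19.8 CPM in controls and 5.73, 6.19 and 11.3 CPM with siMCT4. The groups did not overlap, library 3 was nearest the controls, and the log2 change was -1.17 (SE 0.26, adjusted p = 0.00984). NDUFA4 (chr7:10931943-10940153) had 58.5, 58.9 and 81.5 CPM in controls and 43.6, 49.6 and 36.6 CPM with siMCT4. It was lower in all siMCT4 libraries (log2 change -0.62, SE 0.16, adjusted p = 0.0174), and control library 3 was the high value. Without siMCT4 library 1 it was -0.60 and missed the threshold (adjusted p = 0.0607).

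NDUFAF1 rose and NDUFAF3 fell, and the other NDUFAF genes did not pass. NDUFAF1 (chr15:41387218-41402532), part of the complex that builds the membrane arm with ECSIT, ACAD9 and TMEM126B, was read at 16.9, 19.6 and 18.3 CPM in controls and 26.2, 27.5 and 27.8 CPM with siMCT4. The siMCT4 values were tight and all above the controls (log2 change 0.57, SE 0.08, adjusted p = 0.000981). NDUFAF3 (chr3:49020459-49023495), which acts with NDUFAF4 on the ubiquinone-binding module, fell from 15.9, 14.2 and 15.7 CPM to 5.42, 6.77 and 9.69 CPM. There was no overlap (log2 change -1.07, SE 0.21, adjusted p = 0.00489), and DALRD3 lies opposite NDUFAF3 at the same place. NDUFAF4 (chr6:96889315-96897891) itself was at 23.7, 22.6 and 22.5 CPM against 22.5, 22.2 and 23.0 CPM (log2 change -0.02, SE 0.06, adjusted p = 0.80).

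NDUFAF7 (chr2:37231631-37249160), an arginine methyltransferase of the matrix, had 14.1, 11.9 and 14.2 CPM in controls and 15.7, 16.5 and 14.9 CPM with siMCT4. The groups separated upwards, but the log2 change of 0.23 (SE 0.10) did not pass (adjusted p = 0.116). NDUFAF6, an early-acting factor, separated downwards at 8.69 to 9.11 CPM against 6.98 to 8.41 CPM and did not pass either (-0.22, SE 0.11, adjusted p = 0.171). The NDUFAF6 row overlaps the more highly counted PLEKHF2 on the same strand. NDUFAF2, a paralogue of NDUFA12, was read at 6.67, 6.09 and 7.68 CPM against 4.60, 6.27 and 4.40 CPM (-0.42, SE 0.18, adjusted p = 0.103). NDUFAF5, which hydroxylates an arginine of NDUFS7, had 5.31, 6.73 and 5.53 CPM against 5.21, 5.91 and 4.60 CPM (-0.16, SE 0.16, adjusted p = 0.467). NDUFAF8, the partner of NDUFAF5, was the lowest of the 46 genes per length (0.61 ± 0.26 FPKM in controls, 0.42 ± 0.041 FPKM with siMCT4, SD, n = 3), and its log2 change of -0.60 (SE 0.37) did not pass (adjusted p = 0.234). Overlap of the groups was seen for NDUFAF2, NDUFAF4, NDUFAF5 and NDUFAF8.

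Assembly factors whose symbols do not begin with NDUFAF also gave few calls. Of 14, 1 was higher and 1 was lower, where 20.6% and 20.8% of all tested genes were. The other 12 did not pass, and the median of the 14 was 0.02. Without siMCT4 library 3, 4 were higher and 2 lower, where 23.5% and 23.1% of all tested genes were. FOXRED1, an oxidoreductase-like factor, was at 8.88, 8.72 and 9.52 CPM in controls and 15.1, 14.6 and 10.2 CPM with siMCT4 (log2 change 0.55, adjusted p = 0.0276), and it missed the threshold without any 1 control or without siMCT4 library 1 or 2 (0.48 to 0.59, adjusted p from 0.064 to 0.0845). DMAC2, a membrane-arm factor, was lower by 0.32 on the log2 scale, a fall that passed (adjusted p = 0.017) but not without control library 1 or 3 or siMCT4 library 2 (-0.32 to -0.26, adjusted p from 0.0502 to 0.0794). ECSIT, ACAD9 and TMEM126B, the partners of NDUFAF1, had log2 changes of -0.07, -0.05 and -0.01 and did not pass.

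The 7 core subunits made from mitochondrial DNA were all lower, where 20.8% of all tested genes were. Their log2 changes ran from -0.83 (MT-ND3) to -0.32 (MT-ND2), with a median of -0.47. With limma 6 of 7 were lower on log2(FPKM + 1) and 3 of 7 on log2(TPM + 1), and all 7 changes were negative on both. MT-ND4, the most counted, had 8347, 7667 and 7458 CPM in controls and 5435, 5670 and 5881 CPM with siMCT4. These libraries were made from polyadenylated RNA, and how that selection samples each mitochondrial transcript was not tested. Nuclear genes for complexes II to V gave 17 lower and 0 higher of 38, where 20.8% and 20.6% of all tested genes were. All 38 log2 changes were negative (median -0.39). At an unadjusted p under 0.05 in edgeR 0 of the 38 were higher too, and DESeq2 and limma called 0 higher. The count lower was 26 with GC correction, where 20.7% of all tested genes were called lower. With limma on log2(TPM + 1) the count was 9, where 11.2% of all tested genes were called lower. On that scale 10 of the 38 changes were positive (median -0.18). Without siMCT4 library 3, 16 of the 38 were lower, where 23.1% of all tested genes were. In that fit 4 of the 38 changes were positive and the median was -0.26. COX5B, a complex IV subunit, fell by 1.98 (adjusted p = 0.0037), the largest of these falls with all libraries. COX8A (-2.84) and ATP5F1D (-2.63) lay below COX5B (-2.53) without siMCT4 library 3. In a list of 13 genes that track mitochondrial content, 8 were lower and 2 higher, where 20.8% and 20.6% of all tested genes were. COX4I1, SDHA, UQCRC1 and ATP5F1A of this list are also in the list of complexes II to V, so the lists are not separate. The 2 higher were TIMM23 (an import channel, 0.57) and HSPD1 (a matrix chaperone, 0.19). The count higher was 1 without control library 1 or 2, without siMCT4 library 1 or 2, and with GC correction, where HSPD1 did not pass (adjusted p = 0.0518), and 3 without siMCT4 library 3.

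Regulators of nuclear genes for mitochondria did not move as one. PPARGC1B, a coactivator of such genes, was higher in every siMCT4 library, at 67.0, 65.4 and 62.7 CPM in controls and 167, 158 and 159 CPM with siMCT4 (log2 change 1.31, adjusted p = 2.25e-06). TFAM, which packages and transcribes mitochondrial DNA, fell by 0.60 and GABPB1, a subunit of an ETS-family factor, fell by 0.41 on the log2 scale. The fall of GABPB1 missed the threshold without control library 1 (-0.35, adjusted p = 0.0501). NRF1, GABPA, YY1, PPRC1, PPARGC1A and ESRRA did not pass, and ESRRA was at 7.72 and 8.66 CPM in siMCT4 libraries 1 and 2 and at 18.1 CPM in library 3, against 18.1 to 20.6 CPM in controls. Its log2 change was -0.76 (adjusted p = 0.0868) with all libraries and -1.22 (adjusted p = 3.99e-05) without siMCT4 library 3.

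**Figure D3:**
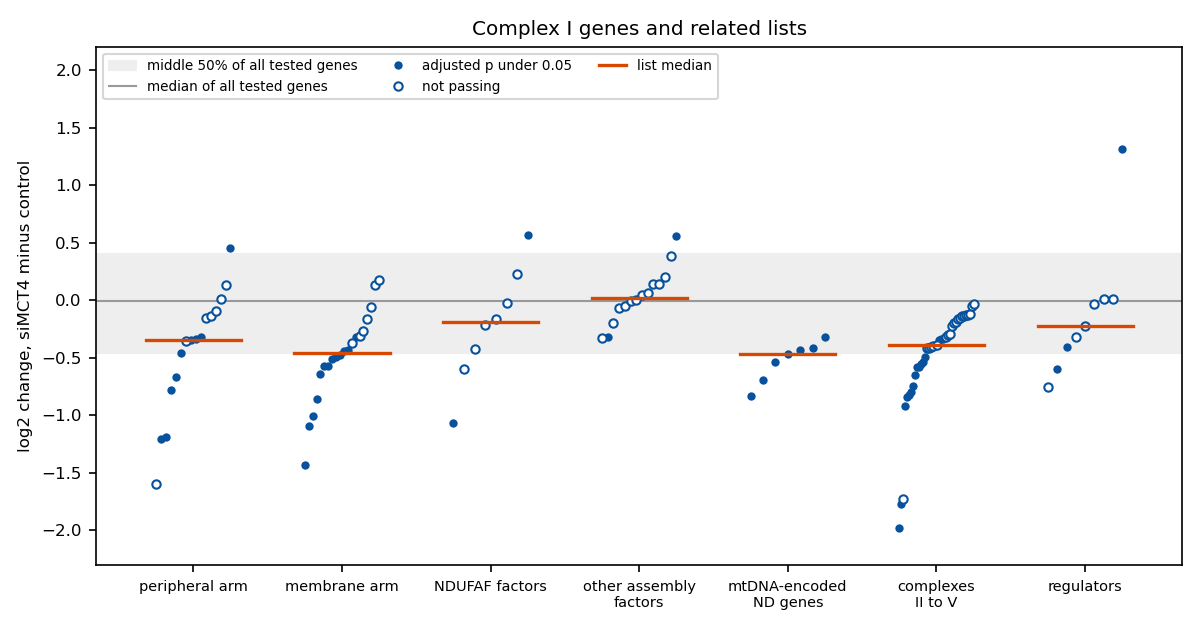
Log2 change, siMCT4 minus control (y axis), of each gene in 7 lists (x axis); filled points passed the test, orange lines are list medians and the grey band holds the middle 50% of all tested genes. Both arms, the mitochondrially encoded genes and complexes II to V have medians between -0.47 and -0.34, the NDUFAF genes -0.19 and the other assembly factors 0.02.

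The size of the fall followed base composition in siMCT4 libraries 1 and 2 more than in library 3. Across the 46 genes, the log2 ratio to the control mean had r = -0.63 with the GC content of the gene's coding transcripts in library 1, -0.63 in library 2 and -0.32 in library 3 (rho -0.56, -0.57 and -0.40). For the 6 structural genes above 60% GC, the median log2 ratio was -1.16, -1.33 and -0.71 in siMCT4 libraries 1 to 3, and for the 10 genes up to 45% GC it was -0.23, -0.15 and -0.42. The same direction was seen beyond these genes: the 1492 expressed genes above 60% GC had medians of -0.52, -0.55 and -0.17. What part base composition has in the fall of complex I genes was not tested.

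The first 90 coding bases are shown for chosen genes (GENCODE 29 transcripts, 5′ to 3′, bases 1 to 90 of the coding sequence, CG dinucleotides in capitals). NDUFS7 and NDUFS8 are shown as the core genes with the widest spread between siMCT4 libraries, NDUFAB1 as a strong fall with a GC-rich start in transcripts of 47.8% GC as a whole, NDUFA5 and NDUFS1 as small falls, and NDUFAF1 as a rise.
NDUFS7: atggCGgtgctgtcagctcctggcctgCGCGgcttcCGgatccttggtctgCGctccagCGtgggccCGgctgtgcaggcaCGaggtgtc
NDUFS8: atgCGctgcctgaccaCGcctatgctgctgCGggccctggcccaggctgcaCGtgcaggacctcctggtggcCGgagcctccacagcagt
NDUFAB1: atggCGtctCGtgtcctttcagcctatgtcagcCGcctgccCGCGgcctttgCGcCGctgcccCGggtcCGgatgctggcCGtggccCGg
NDUFA5: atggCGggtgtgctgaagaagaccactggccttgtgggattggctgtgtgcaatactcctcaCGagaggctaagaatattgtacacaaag
NDUFS1: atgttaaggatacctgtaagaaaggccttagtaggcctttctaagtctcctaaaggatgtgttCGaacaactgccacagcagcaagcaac
NDUFAF1: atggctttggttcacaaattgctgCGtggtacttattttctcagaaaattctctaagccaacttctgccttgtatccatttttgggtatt
The stretches hold 8 CG dinucleotides in NDUFS7, 5 in NDUFS8, 11 in NDUFAB1, 2 in NDUFA5, 1 in NDUFS1 and 1 in NDUFAF1. Their GC contents are 70.0%, 70.0%, 72.2%, 50.0%, 44.4% and 37.8% in that order. NDUFAB1 shows that a strong fall in libraries 1 and 2 was not limited to genes with a high GC content over the whole transcript. Across all 46 genes, the log2 ratio had r = -0.46, -0.45 and -0.18 with the GC content of these bases in siMCT4 libraries 1 to 3. The rho values were -0.43, -0.51 and -0.11. Genes that did not pass could also have GC-rich starts, such as NDUFAF6 (74.4%), NDUFC2 (68.9%) and NDUFAF5 (67.8%).

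**Figure D4:**
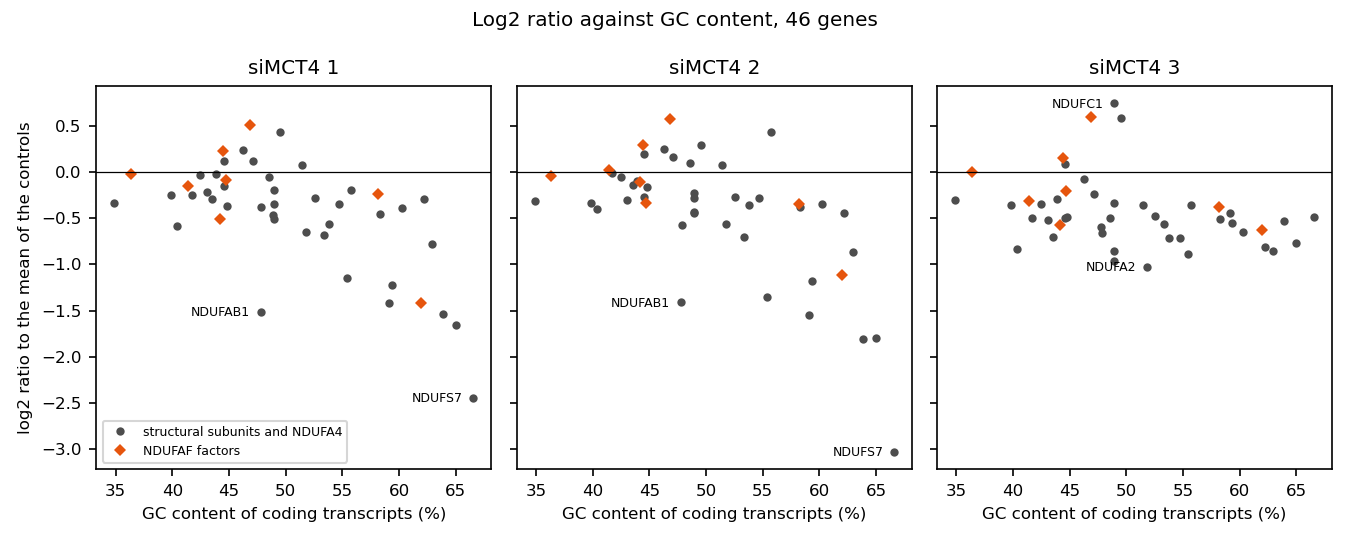
Log2 ratio to the mean of the controls (y axis) against the GC content of coding transcripts in percent (x axis) for the 46 genes in siMCT4 libraries 1, 2 and 3; orange diamonds are NDUFAF genes. The lowest points lie at the right in libraries 1 and 2 (r = -0.63 in each), and the relation is weaker in library 3 (r = -0.32).

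With a correction for GC content in each library, 20 structural genes were lower and 1 was higher (median -0.40), where 20.7% of genes were called lower and 21.7% higher. Of the 8 NDUFAF genes, 1 was lower and 1 higher, and their median moved from -0.19 to -0.25. With GC and length correction the medians were -0.41 for structural and -0.26 for NDUFAF genes. The calls lost were NDUFV1 (-0.21, adjusted p = 0.135), NDUFA3 (-0.37, adjusted p = 0.0932), NDUFA11 (-0.34, adjusted p = 0.0891) and NDUFA13 (-0.05, adjusted p = 0.843). NDUFS7 moved to -1.003 and still did not pass (adjusted p = 0.0616). NDUFB7 moved from -1.43 to -0.80 and kept its call, as did NDUFS8 at -0.69 and NDUFAF3 at -0.69. NDUFAB1, NDUFS6 and NDUFS3 hardly moved, at -1.22, -1.14 and -0.66, and the rises of NDUFAF1 (0.50) and NDUFV3 (0.40) kept theirs. NDUFA12 (-0.42, adjusted p = 0.0238) and NDUFB3 (-0.37, adjusted p = 0.0136) did not pass without the correction and did with it.

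**Figure D5:**
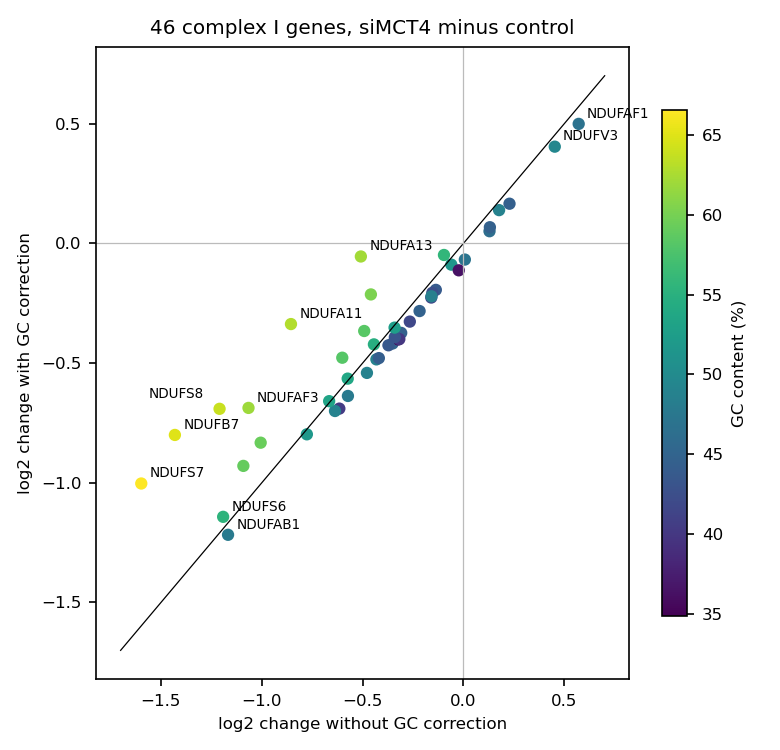
Log2 change with GC correction (y axis) against the log2 change without it (x axis) for the 46 genes, coloured by GC content, with the line of equality. GC-rich genes such as NDUFS7, NDUFB7, NDUFA11 and NDUFA13 move toward 0, while NDUFAB1 and NDUFS6 stay near the line.

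Without siMCT4 library 3, NDUFAB1, NDUFAF3, NDUFB7 and NDUFB10 had log2 changes of -1.52, -1.30, -1.84 and -1.25 and kept their calls. Of the structural genes, 21 were then lower and 2 higher (median -0.29), where 23.1% of genes were called lower and 23.5% higher. With library 3 as the only siMCT4 library, assumed to vary like the others, 23 were lower and 2 higher (median -0.51), where 16.2% were called lower and 15% higher. In library 3, 8 genes lay more than 0.5 above the mean of libraries 1 and 2 on the log2 scale (NDUFAB1, NDUFAF3, NDUFB7, NDUFB10, NDUFB11, NDUFC1, NDUFS7 and NDUFS8) and 3 lay more than 0.5 below it (NDUFB2, NDUFB9 and NDUFS5). Without control library 3, the calls lost included NDUFA1, NDUFA3, NDUFB1, NDUFB2 and NDUFB8 (adjusted p of these from 0.0596 to 0.117). In that fit 14 structural genes were lower (median -0.33), where 15.3% of genes were called lower. On log2(TPM + 1), TPM being FPKM rescaled to the same sum in each library, with limma, 11 were lower and 2 higher, where 11.2% of genes were called lower and 24.3% higher. That fit tested 24839 genes, and their median was 0.11, against -0.0064 for the 19944 genes of the main test. Its calls were 6044 higher and 2773 lower, against 4116 and 4144 in the main test. The 2 fits differ in gene set, added constant and scale, so the difference is not that of scale alone. Relative to the median of all genes in its own fit, the structural median was -0.33.

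Promoter windows of the RefSeq GRCh38.p14 annotation (250 bases before to 50 after the start) were matched by symbol for 39 of the 46 genes. Those without a window included NDUFA4, NDUFAF6, NDUFB5, NDUFB9, NDUFC2 and NDUFS5. The letters ATGGCGG, the core of YY1 motifs, were searched on both strands and found in 13 of 32 structural windows (40.6%) and 1 of 7 NDUFAF windows, against 5.72% of all 27305 windows and 7.63% of the 15843 of protein-coding genes. Because ATG followed by GCGG can also open a coding sequence, this overlap was counted: 8 of those 13 genes have a coding sequence that begins with ATGGCGG. GCATGCGC, an NRF1 motif, was found in 5 of 32 structural windows, 2 of 7 NDUFAF windows, 3.27% of all windows and 4.26% of protein-coding ones. CCGGAAG, an ETS-family motif, was found in 5 of 32 structural windows (15.6%), 1 of 7 NDUFAF windows, 10.7% of all windows and 14.2% of protein-coding ones. The 13 structural genes with ATGGCGG included 6 called lower (median -0.34), and the 19 without it included 13 (median -0.46). For CCGGAAG, 5 of 5 genes with a match were called lower (median -0.57) and 14 of 27 without, and for GCATGCGC 1 of 5 with a match and 18 of 27 without, differences that were not tested. A match describes letters and no binding.

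Windows of 30 bases around the match are shown for 2 genes that fell, NDUFS3 and NDUFS8, for NDUFS7, and for NDUFV3, which rose, with the matched letters in capitals (GRCh38.p14, plus strand, 5′ to 3′).
NDUFS3, chr11:47579081-47579110: atctgagtaacATGGCGGcggcggcggtag
NDUFS7, chr19:1383916-1383945: ccgaggccaagATGGCGGtgctgtcaggtg
NDUFS8, chr11:68030493-68030522: cccaaaccaacATGGCGGccccctacaaac
NDUFV3, chr21:42893318-42893347: gcccgctgtcaCCGCCATggctgccccgtg
The same letters were found for genes that fell and for the 1 structural gene that rose, in NDUFV3 as the reverse complement. The matches begin at 18 (NDUFS3), 20 (NDUFS7), -177 (NDUFS8) and 20 (NDUFV3) bases from the start that defines the window. In NDUFS7 the matched letters also open the coding sequence shown above. The count of coding sequences that begin with ATGGCGG did not cover reverse-complement matches at a coding start.

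Reads shared with other genes limit some of these rows. Of the 46 genes, 27 overlap another row of the table, 7 of them on the same strand with a row that holds at least 5% of their counts and 13 on the opposite strand. NDUFAF6 lies on the same strand as PLEKHF2, whose row held 33254 counts over all libraries against 3305 for NDUFAF6. NDUFB8 overlaps an unnamed row on its strand that held 152 counts in siMCT4 library 3 and 467 to 586 in the other libraries. NDUFB9 overlaps MTSS1 on the opposite strand, which held 48376 to 53158 counts in controls and 24085 to 29647 with siMCT4. Other opposite rows rose, such as IK at NDUFA2, with 6973 to 7176 counts in controls and 9454 to 11034 with siMCT4. What such rows add to these genes was not tested. NDUFB2 lies on the same strand as ADCK2, and NDUFC2 and NDUFA13 share sequence with read-through rows. With its read-through row added, NDUFA13 was at 46.4, 49.5 and 67.5 CPM in controls and 40.2, 44.98 and 31.4 CPM with siMCT4, so the groups still did not overlap. Summed in the same way, NDUFC2 was at 20.7, 21.6 and 25.02 CPM against 26.4, 26.6 and 21.7 CPM. Pseudogene rows of these genes, 23 in number, held at most 231 counts each over all libraries.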

How the data were processed

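The 6 THP-1 macrophage libraries were made from polyadenylated RNA with a dUTP second strand and read from both ends, per the labels' protocols. Trimming with cutadapt 1.9 and alignment with HISAT2 2.2.1 are named in the submitters' processing notes, which also name GRCh38. How reads were counted, on which annotation and strand, is not given in the sources. Per the file headers, the authors deposited counts and FPKM side by side for each gene and library. Between 2 and 41 counts, 58.7% to 60.9% of values per library were even, so mates may have been counted singly and counts may not be independent fragments.

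Counts were tested with edgeR 4.0.16 (R 4.3.3; TMM, filterByExpr with a minimum count of 10 and a total of 15, quasi-likelihood F test, two-sided, Benjamini-Hochberg over 19944 genes, threshold 0.05; common biological coefficient of variation 0.22). Log2 ratios per library used CPM plus 0.5. Alternatives used DESeq2 1.42.0 size factors and tests, limma 3.58.1 on log2(FPKM + 1) and log2(TPM + 1), other scalings and filters, GC (lowess span 0.3, GENCODE 29, available for 96.8% of tested genes) and length offsets, each library left out and a replicate block. The fits with siMCT4 library 3 alone and with GC and length offsets together were added after seeing the data. The scripts were tested on simulated data. Named genes with full statistics were the 7 nuclear core subunits, NDUFAB1, NDUFA4, all NDUFAF genes, SLC16A3 (values of 1 member and 1 marker are not reported here), and up to 5 of the largest falls and rises that passed with groups apart. The members and lists were chosen with earlier results of these data known.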

Additional observations from a re-analysis of the deposited data

How the results depend on the processing

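Of the 26 genes that passed the main test, 10 passed in the same direction under all 16 alternatives, and none of the 26 changed direction under any of them. Those 10 were NDUFA2, NDUFA10, NDUFAB1, NDUFAF1, NDUFAF3, NDUFB7, NDUFB10, NDUFS3, NDUFS6 and NDUFV3. Of the 20 that did not pass, 9 passed under at least 1. Leaving out each library gave 14 to 21 structural genes lower, 1 to 2 higher and medians from -0.48 to -0.29, with 1 to 2 NDUFAF genes lower and NDUFAF medians from -0.22 to -0.12. Those fits called 3160 to 4814 genes lower and 3409 to 4894 higher in all, of 20713 to 21022 tested. limma on log2(FPKM + 1) gave 18 structural genes lower and 2 higher, 1 NDUFAF gene lower and 2 higher, and medians of -0.26 and -0.033. In that fit 3439 of 20202 tested genes were lower and 5014 higher. limma on log2(TPM + 1) gave 11 structural genes lower and 2 higher, 1 NDUFAF gene lower and 3 higher, and medians of -0.22 and 0.0058. There 11.2% of all tested genes were lower and 24.3% higher. siMCT4 library 3 alone gave 2 structural genes higher. The libraries numbered alike did not deviate together (correlations of -0.096, 0.0014 and -0.084), and with a replicate block 19 structural genes were lower and 1 higher, 21 of 22 called members were shared with the main test, NDUFS7 passed at -2.07 (adjusted p = 0.0385), and 3341 genes in all were higher and 3580 lower. Signs changed for 10 genes that did not pass. NDUFA6 was -0.068 with GC correction, -0.044 with GC and length correction, -0.24 with siMCT4 library 3 alone and from -0.077 to 0.18 with each library left out. NDUFA7 was 0.049 (FPKM), 0.15 (TPM) and -0.38 to 0.25 (each library left out). NDUFA8 was 0.038 (FPKM), 0.13 (TPM), 0.0062 (GC and length) and -0.11 to 0.099 with each library left out. NDUFAF4 was 0.0077 with upper-quartile factors, 0.077 (FPKM), 0.17 (TPM, where it passed, adjusted p = 0.0323), 0.022 (siMCT4 library 3 alone) and -0.038 to 0.014 with each library left out. On TPM, NDUFA9 was 0.056, NDUFAF5 0.028, NDUFS4 0.054 and NDUFS5 0.050, and NDUFS5 ran from -0.27 to 0.068 with each library left out. NDUFC1 ran from -0.21 to 0.37 with each library left out, and NDUFC2 was -0.078 with siMCT4 library 3 alone. The cause of these changes was not tested. NDUFAF8, the lowest gene per length, had a wide spread in controls, which limits what can be said of its change.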
